A study of Mus musculus with 6 samples.

Results

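The genes described here encode the junctions that hold epithelial cells together and the plakins that tie those junctions to the cytoskeleton. They were chosen by name, as 35 of the 23337 genes in the count tables: 6 plakins, 11 desmosome and hemidesmosome genes, 6 adherens junction genes, 8 tight junction genes, 2 epithelial surface genes (Epcam and Cd24a) and 2 gap junction genes. All 35 were found and all 35 passed the filter on low counts.

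The RNA came from mouse mammary basal cells, the epithelial layer next to the basement membrane, to which the contractile myoepithelial cells belong. There were 4 libraries from mice homozygous for a Vim knockout allele (Vimtm1Cba/tm1Cba), set against 2 libraries from wild-type mice (Vimwt/wt). All groups shared the strain background (129/Sv X C57BL/6), the age of 15 weeks, collagenase digestion of the glands and sorting as live CD45neg, CD31neg, CD24low and CD49fhi cells of passage p0. Each library pooled 2 to 3 mice, and the knockout is carried by every cell of the animal, so differences in other tissues of the mouse are part of the comparison. The question was how the transcripts of junction and linker proteins compare in basal cells that lack vimentin. A day code divides the libraries into experiment 1 (knockout 1 and 2, wild type 1) and experiment 2 (knockout 3 and 4, wild type 2).

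Vimentin is an intermediate filament protein. Desmosomes anchor intermediate filaments at contacts between cells, and hemidesmosomes anchor them at the basement membrane; in both, the link is made by plakins. Adherens junctions are cadherin and catenin complexes tied to actin, tight junctions seal the apical side of luminal epithelium, and gap junctions are connexin channels through which neighbouring cells exchange small molecules. In the mammary gland, basal cells contact each other, the luminal cells above them and the basement membrane below them.

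Total counts were 25347967 to 30771258 in the knockout libraries and 27342539 and 31200622 in the wild-type libraries, and the 35 genes took 1.599% to 1.821% of them. The lowest count of any of these genes in any library was 34. Vim was lower in every knockout library, at 92.4, 105, 111 and 111 CPM (read counts scaled to library size), against 215 and 241 CPM in wild type (log2 fold change -1.12, SE 0.12, edgeR adjusted p = 0.019). That call was lost without knockout 2, 3 or 4 or without either wild-type library (adjusted p between 0.0598 and 0.0908). The basal keratin Krt14 stood at 4020.0 to 4551 CPM in knockout and at 3905 and 4563 CPM in wild type. The 10 basal markers summed to 16909 to 20277 CPM in knockout and to 19172 and 19690 CPM in wild type, against 1779 to 2135 CPM in knockout and 1748 and 1987 CPM in wild type for 17 luminal markers. Markers of endothelial cells, which the CD31neg gate should remove, summed to 68.9 to 92.4 CPM in knockout and to 273 and 106 CPM in wild type 1 and 2. All 16 of them lay below 0 (median log2 fold change -1.77), and none was at 0 counts in every library. Of the 16, 11 were lower in all 4 knockout libraries than in both wild-type libraries, against 8.57% of all genes. None had an edgeR adjusted p under 0.05 without or with the experiment in the model, against 0.079% and 1.56% of all genes. Fibroblast markers summed to 102 to 139 CPM in knockout and to 155 and 136 CPM in wild type. Pericyte markers summed to 15.7 to 23.0 CPM in knockout and to 28.9 and 18.4 CPM in wild type. All 7 fibroblast and all 5 pericyte markers lay below 0 (median log2 fold changes -0.43 and -0.81), none with an edgeR adjusted p under 0.05. Leukocyte markers summed to 81.7 to 124 CPM in knockout and to 141 and 111 CPM in wild type. In every library the leukocyte sum came mostly from Cd74, at 137 and 109 CPM in wild type and 122 CPM in knockout 2. The leukocyte marker Ptprc reached at most 0.456 CPM, in wild type 1. The part of these cell types in the differences below was not tested.

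None of the 35 junction and cytolinker genes was called as changed in the knockout. The test was edgeR's quasi-likelihood test over 13925 genes, and a call needed a Benjamini-Hochberg adjusted p under 0.05. It called 11 genes in all, 0.079% of those tested, so 0 of 35 is near the background. DESeq2 called 1.88% of all genes and limma-voom 0.0718%, and each called 0 of the 35. At an unadjusted p under 0.05 there were 6 of the 35 (17.1%), against 8.57% of all genes: Dsp, Plec, Dsc2, Dsg2 and Ctnnd1 lower and Cd24a higher in knockout. With the experiment as a replicate block 0 of the 35 were called, against 1.56% of all genes, and 8 (22.9%) had an unadjusted p under 0.05, against 13.6%; Ppl, lower, and Pkp1, higher, joined the 6.

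All 4 knockout libraries lay below both wild-type libraries for 5 of the 35 genes (14.3%), against 8.57% of all genes. These were Dsp, Plec, Ppl, Dsg2 and Ctnnd1. All 4 knockout libraries lay above both wild-type libraries for Evpl and Cd24a, 2 of 35 (5.71%), against 7.6% of all genes. The median log2 fold change was -0.04 over the 35 genes (13 above 0, 22 below) and -0.01 over all genes tested. Leaving out wild type 1 gave -0.19 over the 35, and leaving out wild type 2 gave 0.03. The typical size of the differences was also close, with a median absolute log2 fold change of 0.165 for the 35 genes and 0.157 for all genes. In 29 of the 35 the 95% interval of the difference lay within a 2-fold change, which was so for 71.35% of all genes. In sorted bulk samples, fewer cells of a type and less RNA per cell cannot be told apart, and this holds for every level below.

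**Figure D1:**
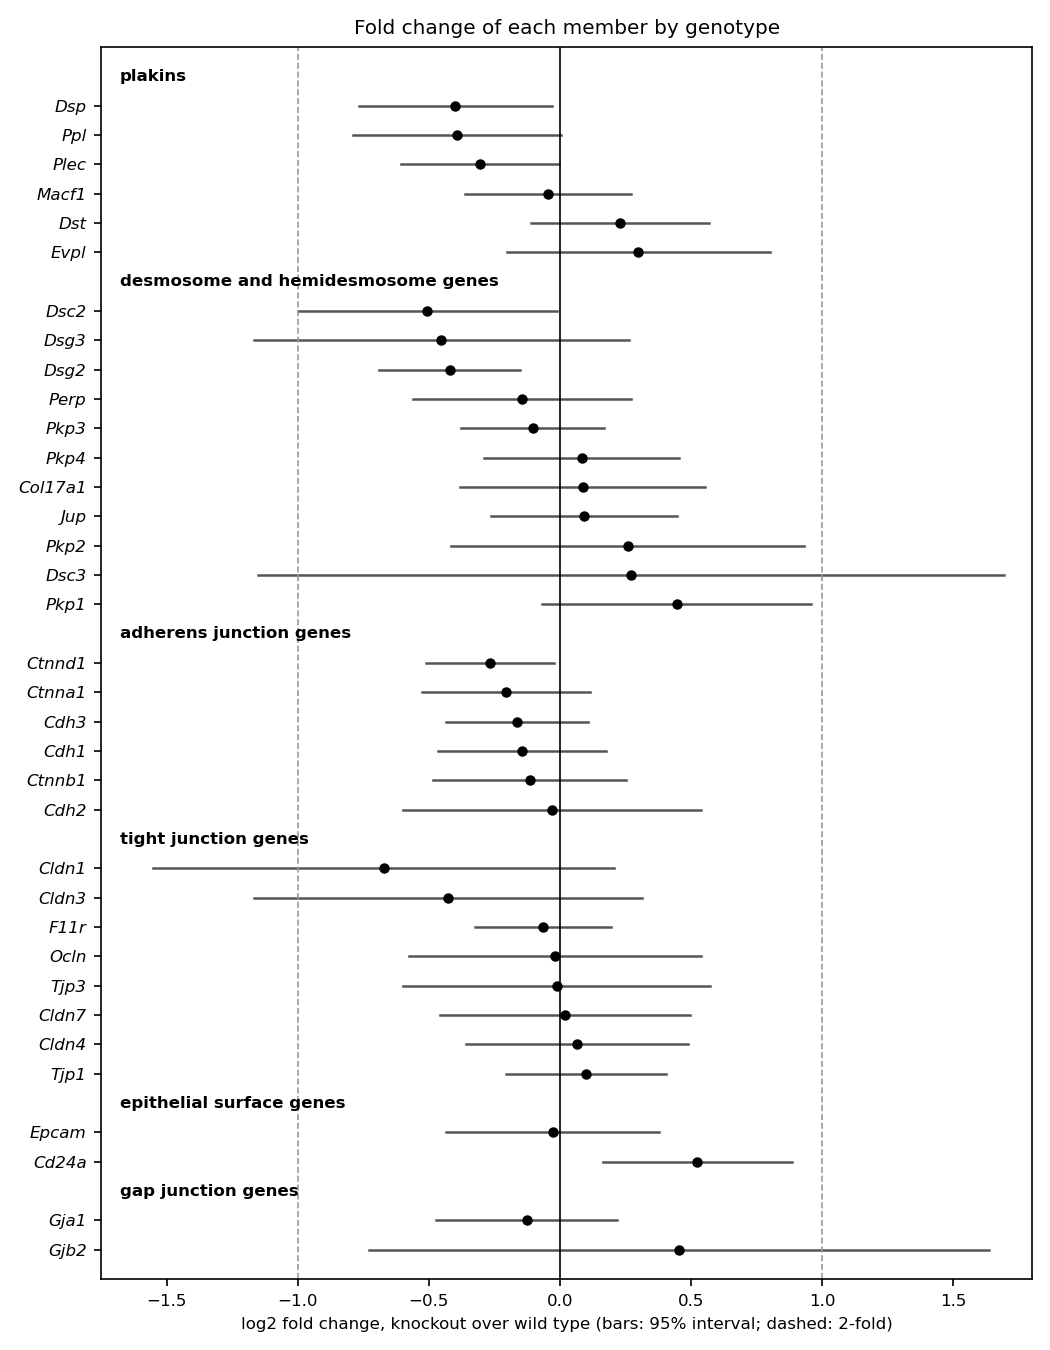
Log2 fold change (knockout over wild type, 4 against 2 libraries) of each of the 35 genes, by kind of junction. Points are edgeR estimates and bars their 95% intervals. Dashed lines mark a 2-fold change; 29 of the 35 intervals lie between them, and none of the genes passed the adjusted test.

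Levels across the genes spanned a wide range. Per kb of exon, averaged over the 6 libraries, the highest level was that of Gja1 at 378 CPM per kb, followed by Ctnna1 at 377, Pkp1 at 346, Epcam at 335 and Cdh1 at 325 CPM per kb. Neighbours among these 5 did not differ beyond the spread of their libraries. The lowest were Tjp3 at 1.30, Evpl at 1.26 and Dsc3 at 0.703 CPM per kb. In all, 30 of the 35 genes reached 10 CPM in every library.

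**Figure D2:**
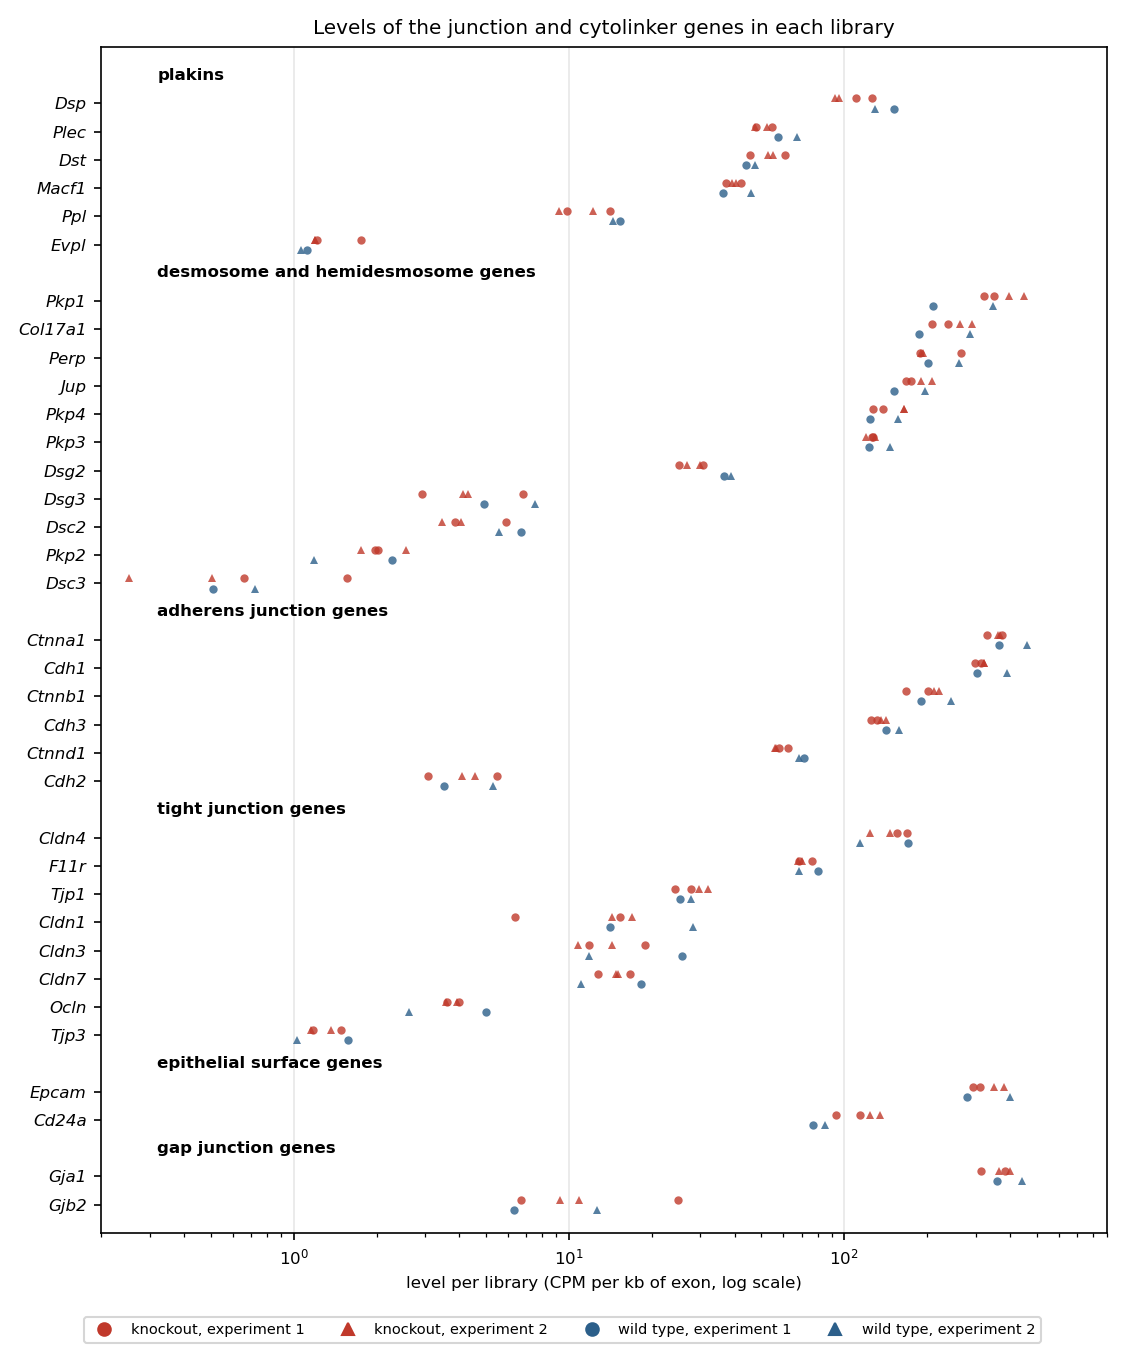
Level of each gene in each library, in CPM per kb of exon on a log scale, with 4 knockout points (red) above 2 wild-type points (blue) and shapes for the experiments. Genes are grouped by junction and ordered by level within the group; the levels run from 0.703 (Dsc3) to 378 CPM per kb (Gja1) as means over the 6 libraries.

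Among the plakins, 2 genes lay above 0 and 4 below, with a median log2 fold change of -0.17; edgeR called 0 of 6, and 2 were under 0.05 before adjustment. Without wild type 2 the median was -0.02, with 3 on each side of 0. Dsp encodes desmoplakin, which joins the desmosome to intermediate filaments, and it was the plakin with the highest level per kb in 6 of 6 libraries, with 37.5% to 49.5% of the summed level of the 6 plakins. Dsp (mm10 chromosome 13, positions 38151294 to 38198577) stood at 1214, 1059.6, 920.0 and 891 CPM in knockout 1 to 4, against 1450.4 and 1242 CPM in wild type 1 and 2. The groups did not overlap, and the means were 1021 ± 148 CPM in knockout (SD, n = 4) and 1346 ± 147 CPM in wild type (SD, n = 2). Its log2 fold change was -0.40 (SE 0.16, 95% interval -0.77 to -0.03, edgeR adjusted p = 0.541). The difference was -0.36 in experiment 1 and -0.46 in experiment 2, and the blocked fit gave an adjusted p of 0.107.

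Plec encodes plectin, a large linker that binds intermediate filaments, vimentin among them, and connects them to actin, microtubules and hemidesmosomes. Plec (chromosome 15, positions 76170974 to 76231378) stood at 959, 836, 916 and 830.5 CPM in knockout, against 1005 and 1182 CPM in wild type. The 4 knockout values lay below both wild-type values, although knockout 1 was close to wild type 1. The log2 fold change was -0.30 (SE 0.13, edgeR adjusted p = 0.578), made up of -0.17 in experiment 1 and -0.44 in experiment 2. Periplakin (Ppl), a plakin of the cell cortex and of keratinised epithelium, was at 61.9, 88.7, 76.5 and 57.8 CPM in knockout and at 96.3 and 90.6 CPM in wild type. Its groups were also apart, by the small step between knockout 2 and wild type 2, and its log2 fold change was -0.39 (SE 0.17, edgeR adjusted p = 0.587).

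Dystonin (Dst), the plakin of which an epithelial form anchors keratin at hemidesmosomes, was at 1059.7, 1418, 1281 and 1225 CPM in knockout, against 1026 and 1103 CPM in wild type. One knockout library lay between the wild-type values, and the log2 fold change was 0.23 (SE 0.15, edgeR adjusted p = 0.788), on the opposite side of 0 from Dsp, Plec and Ppl. Macf1, which crosslinks microtubules and actin, gave -0.04 (SE 0.14, edgeR adjusted p = 0.977). Envoplakin (Evpl), the partner of periplakin in the cornified envelope of skin, was at 7.80, 11.3, 7.66 and 7.67 CPM in knockout and at 7.15 and 6.81 CPM in wild type. All 4 knockout values were higher, 3 of them narrowly, and the log2 fold change was 0.30 (SE 0.22, edgeR adjusted p = 0.836). Periplakin and envoplakin thus lay on opposite sides of 0. Per kb, Ppl averaged 11.3 CPM in knockout and 14.9 CPM in wild type, and Evpl 1.34 CPM in knockout and 1.09 CPM in wild type.

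**Figure D3:**
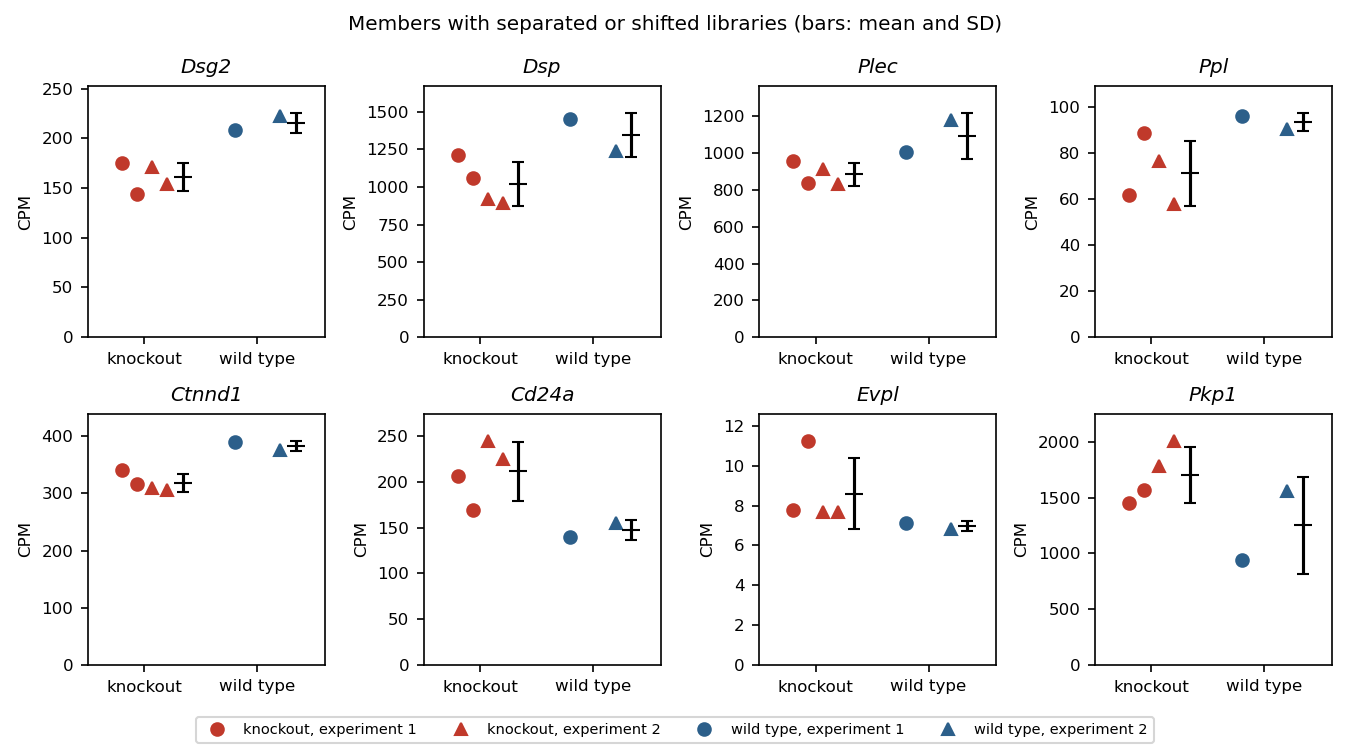
Expression in CPM of 8 genes in each library, with 4 knockout libraries left and 2 wild-type libraries right in each panel; bars give the mean and SD, and circles and triangles mark experiments 1 and 2. In Dsg2, Dsp, Plec, Ppl and Ctnnd1 all knockout points lie below both wild-type points, and in Cd24a and Evpl all lie above; Pkp1 in wild type differs between the experiments (945 against 1557 CPM).

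The desmosome and hemidesmosome genes were split, with 6 above and 5 below 0 and a median log2 fold change of 0.08; edgeR called 0 of 11, and 2 were under 0.05 before adjustment. The median was -0.08 without knockout 2 and -0.17 without wild type 1. The desmosomal cadherins that carry the adhesion between cells are desmogleins and desmocollins, and Dsg2 and Dsc2 are their forms of simple epithelium. Dsg2 held 81.8% to 89.6% of the summed level of Dsg2 and Dsg3 per kb, and Dsc2 held 71.1% to 93.2% of that of Dsc2 and Dsc3. Dsg2 was at 175, 144, 171 and 154 CPM in knockout, against 209 and 223 CPM in wild type. The gap between the groups exceeded the spread within either, with 161 ± 14.6 CPM in knockout (SD, n = 4) and 216 ± 9.89 CPM in wild type (SD, n = 2). Dsg2 had the smallest unadjusted p of the 35 genes, yet it did not pass the adjusted test (log2 fold change -0.42, SE 0.12, 95% interval -0.69 to -0.15, edgeR adjusted p = 0.314). The difference was -0.39 in experiment 1 and -0.46 in experiment 2, the blocked fit gave an adjusted p of 0.092, and the log2 fold change stayed between -0.45 and -0.35 when any library was left out.

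Dsc2 was at 26.0, 17.0, 17.9 and 15.3 CPM in knockout, against 29.5 and 24.7 CPM in wild type. Knockout 1 lay between the wild-type libraries and the other 3 below them, and the log2 fold change was -0.51 (SE 0.22, edgeR adjusted p = 0.576). Dsg3, a desmoglein best known from stratified epithelium, ranged from 12.1 to 27.9 CPM in knockout and stood at 20.3 and 30.9 CPM in wild type (log2 fold change -0.45, SE 0.31, edgeR adjusted p = 0.810). Dsc3, its desmocollin counterpart in such epithelium, was at 3.49, 8.30, 2.69 and 1.34 CPM in knockout and at 2.71 and 3.85 CPM in wild type. It had the widest relative range of the 35 genes over the 6 libraries, and its difference was 0.97 in experiment 1 and -0.99 in experiment 2.

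The armadillo proteins of the desmosome sit between the cadherins and desmoplakin. Of their 5 genes Pkp3 lay below 0 and Jup, Pkp1, Pkp2 and Pkp4 above, each with a 95% interval that included 0. Plakophilin Pkp1 had the highest level of the 4 plakophilins in 6 of 6 libraries, with 45.8% to 61.1% of their sum per kb. Pkp1 (chromosome 1, positions 135871395 to 135919024) stood at 1448, 1569, 1785 and 2010.5 CPM in knockout, against 945 and 1557 CPM in wild type. Of the 4 knockout libraries 3 exceeded both wild-type libraries, and all 4 exceeded the wild-type library of the same experiment. The 2 wild-type libraries themselves differed more than the genotype means. The log2 fold change was 0.45 (SE 0.22, 95% interval -0.07 to 0.96, edgeR adjusted p = 0.665). In the blocked fit the standard error was 0.13 and the adjusted p 0.113, with differences of 0.67 in experiment 1 and 0.28 in experiment 2.

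Plakoglobin (Jup), which serves desmosomes and adherens junctions alike, gave a log2 fold change of 0.09 (SE 0.15), with 839 to 1047 CPM in knockout and 760.4 and 981 CPM in wild type. Pkp3 (-0.10, SE 0.12) and Pkp4 (0.08, SE 0.16), the other well expressed plakophilins, were as close to 0. Pkp2 was low, at 5.08 to 7.42 CPM in knockout and 6.60 and 3.43 CPM in wild type, with differences of -0.19 in experiment 1 and 0.83 in experiment 2. None of these 4 passed the edgeR test, with adjusted p from 0.930 to 0.962.

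Perp, a tetraspan membrane protein needed for desmosome assembly in skin, was at 506, 359, 366 and 362 CPM in knockout and at 384 and 497 CPM in wild type. Knockout 1 stood apart from the other 3 knockout libraries, which lay close together and below both wild-type values. Over all libraries the log2 fold change was -0.15 (SE 0.18, edgeR adjusted p = 0.939). Col17a1, the transmembrane collagen of hemidesmosomes, was at 1292, 1132, 1424 and 1585 CPM in knockout, against 1011 and 1547 CPM in wild type (log2 fold change 0.09, SE 0.20, edgeR adjusted p = 0.967). Like Pkp1, it was lowest in wild type 1 and, within each genotype, higher in experiment 2.

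All 6 adherens junction genes lay below 0, with a median log2 fold change of -0.16 and a range from -0.27 to -0.03; edgeR called 0 of 6, and 1 had an unadjusted p under 0.05. Leaving out wild type 2 turned 3 of the 6 above 0 (median 0.01). E-cadherin (Cdh1) held 67.7% to 70.5% of the summed level of the 3 listed cadherins per kb. P-cadherin (Cdh3), known as the cadherin of the basal layer in the mammary gland, held 28.6% to 31.5%, and N-cadherin (Cdh2) 0.719% to 1.21%. These shares hardly moved between libraries or genotypes. Cdh1 was at 1381, 1319.8, 1424 and 1422 CPM in knockout, against 1343 and 1724 CPM in wild type, so the knockout libraries lay near wild type 1 and below wild type 2 (log2 fold change -0.15, SE 0.14, edgeR adjusted p = 0.909). Cdh3 gave -0.16 (SE 0.12, edgeR adjusted p = 0.828) and Cdh2 -0.03 (SE 0.25, edgeR adjusted p = 0.996).

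Among the catenins, Ctnnd1, the catenin that binds the cadherin tail next to the membrane and holds cadherins at the surface, differed most. Ctnnd1 (chromosome 2, positions 84600781 to 84650740) was at 341, 316, 310.1 and 306 CPM in knockout, against 389 and 376 CPM in wild type. The groups were apart and narrow, at 318 ± 15.6 CPM in knockout (SD, n = 4) and 383 ± 9.19 CPM in wild type (SD, n = 2). The log2 fold change was -0.27 (SE 0.11, 95% interval -0.51 to -0.02, edgeR adjusted p = 0.541), with -0.25 in experiment 1 and -0.29 in experiment 2. Alpha-catenin (Ctnna1), which connects the complex to actin, was at 1216 to 1378 CPM in knockout and at 1344 and 1695 CPM in wild type (log2 fold change -0.21, SE 0.14, edgeR adjusted p = 0.805). Beta-catenin (Ctnnb1), an adhesion protein and the effector of canonical Wnt signalling, was at 606 to 798 CPM in knockout and at 688 and 886 CPM in wild type (log2 fold change -0.12, SE 0.16, edgeR adjusted p = 0.949). For both genes the knockout range reached across wild type 1.

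The 8 tight junction genes had a median log2 fold change of -0.02, with 3 above and 5 below 0 (0.00035, with 4 on each side, under DESeq2 size factors). The median was 0.30 without wild type 1 (7 above, 1 below) and -0.24 without wild type 2 (1 above, 7 below). With all libraries, edgeR called 0 of 8, and 0 had an unadjusted p under 0.05. Of these, 6 genes, Cldn3, Cldn4, Cldn7, Ocln, Tjp3 and F11r, lay below 0 in experiment 1 and above 0 in experiment 2. The claudins are the strand-forming membrane proteins, and Cldn4 was the most abundant of the 4 listed in 6 of 6 libraries, with 69.1% to 84.5% of their sum per kb. Cldn4 was at 281, 306, 225 and 266 CPM in knockout, against 309 and 207 CPM in wild type. All 4 knockout libraries lay between wild type 1 and wild type 2, and the log2 fold change was 0.07 (SE 0.18, edgeR adjusted p = 0.975).

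Cldn7 was at 24.2, 18.5, 21.8 and 21.6 CPM in knockout and at 26.5 and 16.1 CPM in wild type. Occludin (Ocln), another transmembrane protein of the strands, was at 12.7, 11.5, 12.6 and 11.5 CPM in knockout and at 16.0 and 8.39 CPM in wild type. Tjp3, a zonula occludens scaffold, was at 3.55, 4.50, 4.13 and 3.50 CPM in knockout and at 4.78 and 3.12 CPM in wild type. As with Cldn4, every knockout value of these 3 genes fell between wild type 1, the highest library, and wild type 2, the lowest. Their log2 fold changes were 0.02, -0.02 and -0.01, with differences of -0.32, -0.40 and -0.25 in experiment 1 and 0.43, 0.51 and 0.28 in experiment 2. With a single wild-type library per experiment, the difference between experiments in these values cannot be told apart from a difference between the wild-type pools.

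Cldn3 was at 23.8, 14.9, 18.0 and 13.6 CPM in knockout and at 32.4 and 14.9 CPM in wild type (log2 fold change -0.43, SE 0.32, edgeR adjusted p = 0.845). The value depended on the wild-type library used: without wild type 1 the log2 fold change was 0.26, and without wild type 2 it was -0.88. The luminal keratin Krt19 was likewise higher in wild type 1 than in wild type 2, at 214 against 97.7 CPM. In knockout 1 to 4 Krt19 was at 249, 172, 149 and 149.6 CPM. Krt18 was also higher in wild type 1, at 612 against 546 CPM, while Krt8 was lower, at 643 against 742 CPM. Part of the tight junction genes, Cldn3 and Cldn7 among them, are known from luminal cells. The summed luminal markers were 1987 CPM in wild type 1, 1748 CPM in wild type 2 and 1779 to 2135 CPM in knockout. Krt8 and Krt18 made up most of these sums. Of the less abundant markers, Ehf was at 31.8 CPM in wild type 1 and 6.89 CPM in wild type 2. Pgr was at 25.6 and 6.12 CPM, and Elf5 at 8.61 and 2.31 CPM. Aldh1a3, Ltf, Muc1 and Gata3 were, like Krt8, lower in wild type 1 than in wild type 2. The part of luminal cells in the difference was not tested.

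Cldn1 had the largest fold change of the 35 genes in absolute size. It was at 49.7, 20.7, 46.4 and 55.0 CPM in knockout, against 45.6 and 91.6 CPM in wild type. Wild type 2 was well above and knockout 2 well below the other 4 libraries, and its log2 fold change was -0.67 (SE 0.38, 95% interval -1.55 to 0.21, edgeR adjusted p = 0.734). Without wild type 2 it was -0.08. Tjp1, the main adaptor that joins tight junction strands to actin, gave 0.10 (SE 0.13, edgeR adjusted p = 0.948), and F11r, an adhesion molecule of the immunoglobulin family, gave -0.07 (SE 0.11, edgeR adjusted p = 0.959).

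Of the epithelial surface genes, Cd24a encodes the glycoprotein CD24, on which the cells were gated as CD24low, so the sort bounded its protein level in both genotypes. Cd24a (chromosome 10, positions 43579169 to 43584265) was at 207, 169.6, 245 and 225 CPM in knockout, against 139.8 and 155 CPM in wild type. All 4 knockout libraries were higher, at 212 ± 32.1 CPM (SD, n = 4), against 147 ± 10.6 CPM in wild type (SD, n = 2). The log2 fold change was 0.52 (SE 0.16, 95% interval 0.16 to 0.88, edgeR adjusted p = 0.356), with 0.42 in experiment 1 and 0.60 in experiment 2. The blocked fit gave an adjusted p of 0.0585. The luminal keratin Krt18, from cells that carry more CD24 than basal cells, was at 616 to 712 CPM in knockout and at 612 and 546 CPM in wild type (log2 fold change 0.22, edgeR adjusted p = 0.736), and Krt8 was at 581 to 678 CPM in knockout and at 643 and 742 CPM in wild type. Of the 17 luminal markers 9 lay above 0 and 8 below, with a median log2 fold change of 0.19. The unblocked fit called 0 of them and the blocked fit 1, against 0.079% and 1.56% of all genes. The part of luminal cells in the Cd24a difference was not tested. Epcam, an adhesion molecule found on all mammary epithelium, was at 642, 602, 781 and 722 CPM in knockout, against 576 and 825 CPM in wild type, with the wild-type libraries at both ends of the range (log2 fold change -0.03, SE 0.18, edgeR adjusted p = 0.995).

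Of the gap junction genes, Gja1 encodes the connexin known from myoepithelial cells and Gjb2 a connexin known from luminal cells of the lactating gland. Gja1 was at 1195, 977, 1135 and 1245 CPM in knockout, against 1117 and 1369 CPM in wild type (log2 fold change -0.13, SE 0.15, edgeR adjusted p = 0.932). The groups overlapped. Gjb2 was at 60.0, 16.2, 22.3 and 26.3 CPM in knockout, against 15.2 and 30.5 CPM in wild type. Knockout 1 was far above the other 5 libraries. The log2 fold change was 0.45 (SE 0.51, edgeR adjusted p = 0.931), and -0.06 without that library.

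The 2 experiments were also set side by side for each gene. Of the 35 genes, 19 had the same sign in both, 7 above and 12 below 0, and 16 had opposite signs. Among all genes tested 59.5% had the same sign. Across the 35 genes the differences in the 2 experiments had a Pearson r of -0.01 and a Spearman rho of 0.15. These are given as a description, since the genes share libraries. For Dsg2, Dsp, Ppl, Dsc2 and Ctnnd1, all below 0, the values of the 2 experiments were close.

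**Figure D4:**
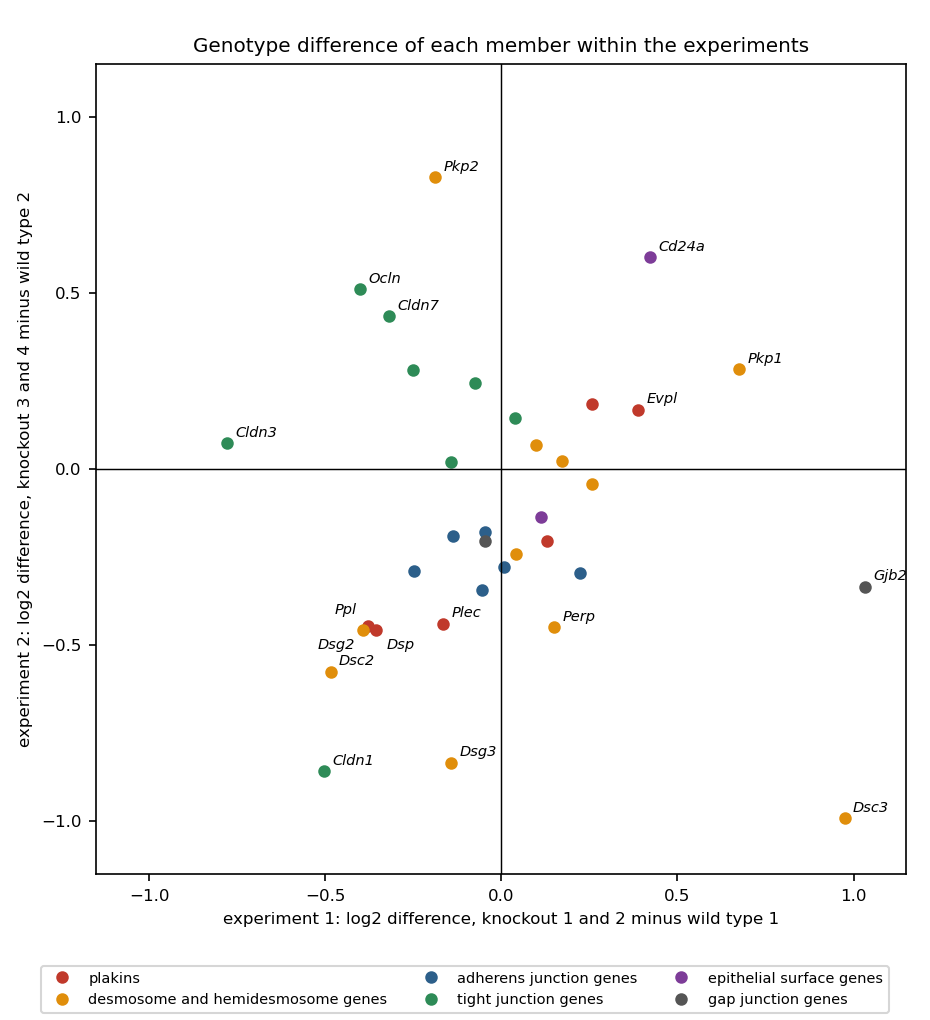
Log2 difference of each of the 35 genes in experiment 1 (x axis, mean of knockout 1 and 2 minus wild type 1) and in experiment 2 (y axis, mean of knockout 3 and 4 minus wild type 2). The 12 genes at lower left include Dsp, Dsg2, Ppl and Ctnnd1; 6 tight junction genes lie at upper left, below 0 in experiment 1 and above 0 in experiment 2.

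The experiment itself was tested with genotype in the model. It called 6.43% of all genes (edgeR adjusted p under 0.05) and 0 of the 35; at an unadjusted p under 0.05 there were 10 of the 35 (28.6%), against 23.5% of all genes. DESeq2 called 6 of the 35 (17.1%: Jup, Pkp1, Pkp4, Col17a1 and Epcam higher and Cldn4 lower in experiment 2), against 10.6% of all genes, and limma-voom called only Pkp1 (2.86%), against 6.28%. By edgeR, Pkp1 was 0.46 higher on the log2 scale in experiment 2 (SE 0.12, adjusted p = 0.0521), a difference as large as that between the genotypes. Col17a1 was 0.41 higher (adjusted p = 0.0663), Epcam 0.35 higher (adjusted p = 0.0733), Pkp4 0.32 higher (adjusted p = 0.0771) and Cldn4 at -0.36 (adjusted p = 0.0813).

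Knockout 1 weighed on the blocked comparison. Without it the fit with the replicate block called 940 of 13744 genes (6.84%), and 7 of the 35 (20%): Dsp, Dsc2, Dsg2, Dsg3 and Cldn1 lower, Pkp1 and Cd24a higher. Without knockout 2 it called 248 of 13878 genes and, of the 35, Cd24a alone. It called 138 of 13749 genes without knockout 3 and 66 of 13866 without knockout 4, with 0 of the 35 in each. Without knockout 1, experiment 1 consisted of knockout 2 and wild type 1 only.

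Beyond the 35 genes, 85 further genes of these junctions were examined as listed families, and 66 passed the filter. None was called by edgeR, against 0.079% of all genes, with 31 above and 35 below 0 and a median log2 fold change of -0.03. At an unadjusted p under 0.05 there were 13 of the 66 (4 higher, 9 lower), against 8.57% of all genes. With the replicate block 3 of the 66 were called, against 1.56% of all genes. Of these, Ctnnd2 and Gjc1, which both fell, are described below. Of the 7 further plakin and hemidesmosome genes, 2 lay above 0 when knockout 2, wild type 1 or wild type 2 was left out. With all libraries, all 7 lay below 0 (median -0.09). The leading one was Itgb4, the integrin beta subunit of hemidesmosomes to which plectin binds, at 711, 579.5, 496 and 485 CPM in knockout, against 882 and 674 CPM in wild type (log2 fold change -0.45, SE 0.19, edgeR adjusted p = 0.550). Knockout 1 exceeded wild type 2, while within each experiment both knockout libraries were lower, with a log2 difference of -0.46 in each (adjusted p = 0.0794 with the block). Itga6, its alpha partner and the CD49f of the sort, gave -0.18 (adjusted p = 0.836) and Cd151, a tetraspanin of hemidesmosomes, -0.09 (adjusted p = 0.930).

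Of the other desmosome genes 1 of 7 was tested, Kazn (log2 fold change 0.25, edgeR adjusted p = 0.664), which encodes a binding partner of periplakin. Of the other adherens junction genes 19 of 20 were tested, 8 above and 11 below 0. Ctnnd2, a relative of Ctnnd1, was at 47.7, 31.2, 30.9 and 33.8 CPM in knockout, against 70.1 and 56.6 CPM in wild type. Its groups were apart, and the log2 fold change was -0.82 (SE 0.19, edgeR adjusted p = 0.248), and it fell with the replicate block (adjusted p = 0.0353). That call was lost without knockout 3 or 4 or either wild-type library (adjusted p from 0.0787 to 0.349).

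Of the other tight junction genes 30 of 34 were tested, 17 above and 13 below 0. Cldn5, a claudin of endothelium, was at 0.283, 0.553, 1.11 and 0.394 CPM in knockout, against 9.61 and 1.81 CPM in wild type (log2 fold change -3.28, SE 0.68, edgeR adjusted p = 0.204). Esam, an adhesion molecule of endothelium, was at 3.46, 4.27, 3.69 and 2.68 CPM in knockout, against 8.46 and 5.35 CPM in wild type (log2 fold change -0.97, SE 0.27, edgeR adjusted p = 0.309). Both were highest in wild type 1, the library with the highest summed endothelial markers (273 CPM, against 106 CPM in wild type 2 and at most 92.4 CPM in knockout), and the part of endothelial RNA in these differences was not tested. Magi3, a scaffold protein, was at 39.7 to 69.2 CPM in knockout, against 29.4 and 41.9 CPM in wild type (log2 fold change 0.62, SE 0.23, edgeR adjusted p = 0.496).

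Of the other gap junction genes 9 of 17 were tested. The connexin gene Gjc1 was at 4.68, 5.37, 5.44 and 4.37 CPM in knockout, against 8.91 and 9.35 CPM in wild type. These narrow groups were clearly apart, with a log2 fold change of -0.88 (SE 0.18), yet the edgeR adjusted p was 0.204 without the block and 0.0463 with it. The blocked call held only in the full set and without knockout 1; without any other library the adjusted p was 0.0531 to 0.375.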

How the data were processed

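The authors deposited raw counts of reads per gene for 6 libraries, with exon lengths. Counts were made with featureCounts 1.5.1 over exons of the UCSC mm10 annotation with strand option 2, leaving out multi-mapped reads and reads that overlap several genes, per the file headers; values of genes that share sequence are therefore uncertain. The submitters' processing notes list Subread 1.5.1, STAR 2.5.2b and bcl2fastq 2.17. The library kit was a stranded one for mRNA, according to the labels.

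Counts were analysed in R 4.3.3 with edgeR 4.0.16 (filterByExpr, TMM scaling, glmQLFit with robust estimation, glmQLFTest, 2-sided), with genotype as the only term. Of 23337 genes 13925 were tested, and an adjusted p under 0.05 was a call. CPM are on the TMM scale, levels per kb divide CPM by exon length, and differences within experiments are of log2 CPM with a prior count of 2. SE is the log2 fold change divided by the root of the F statistic. Other settings were DESeq2 1.42.0, limma-voom (limma 3.58.1), other size factors and filters, an adjusted p under 0.10, the replicate block and leaving out each library. The fits were tested on simulated data that held no difference between the experiments, so that test does not bear on such a difference in these libraries. With 25347967 to 31200622 counts per library, counting error matters most for the lowest genes. Within each genotype no 2 libraries agreed within sampling noise. The chi-square per degree of freedom was 11.15 for knockout 3 and 4, the closest pair, and 40.3 to 63.1 for the other pairs. Nothing says that the pools were independent beyond the 2 experiments, so p-values measure the spread between these libraries.

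The day code that assigns libraries to experiments comes from the names of the deposited files and served only as a technical batch. Across genes, deviations from the group means had r = 0.32, 0.29, 0.25 and 0.41 between each knockout library and its experiment's wild-type library, and the opposite sign across experiments, so the experiment was taken to pair them; with 2 wild-type libraries these values mirror each other. Replicate numbers in the titles gave no such pairing.

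The 35 genes and the wider lists were chosen with earlier results of these data known. The text names all 35, Vim, of each wider list the genes called with or without the block or otherwise up to 3 with the smallest unadjusted p and a mean of at least 1 CPM, and of the cell type lists up to 3 of the highest; a gene that the rule picks is not reported here. No sequence is shown, since gene counts do not bear on one.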

Additional observations from a re-analysis of the deposited data

Results flagged for a closer look

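Within the 4 knockout libraries, each of 46 genes was examined for a single library far from the other 3 (Dixon's test at the 95% level), of which chance gives about 1 in 20. Of the 35 junction and cytolinker genes 2 were picked out. Evpl stood at 11.3 CPM in knockout 2, against 7.80 CPM in the next library. Perp stood at 506 CPM in knockout 1, against 366 CPM in the next library. Of the other genes Ctnnd2 stood at 47.7 CPM in knockout 1, against 33.8 CPM in the next.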

How the results depend on the processing

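The count of 0 called among the 35 genes by genotype held under other size factors, other filters, DESeq2, limma-voom, an adjusted p under 0.10 (14 genes in all), the replicate block and the omission of each library. The count over all genes was 11, against 262 with DESeq2, 217 with the replicate block and 3 to 15 without 1 library. With the replicate block, leaving out 1 library gave 4 to 940 genes and 0 to 7 of the 35. Between the experiments 895 genes and 0 of the 35 were called, against 1473 and 6 with DESeq2, 1342 and 3 with no low-count filter, 1632 and 5 at an adjusted p under 0.10, 875 and 1 with limma-voom, and 38 to 1838 and 0 to 9 without 1 library. The block moved no call of the 35 and moved those of Ctnnd2 and Gjc1.

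Of the 35 fold changes 20 turned sign in some setting, none of them called. Tjp3 turned to 0.0028 with DESeq2 size factors, 0.0020 with the stricter filter, 3.9e-04 with DESeq2 and 0.0071 with the block, and Ocln to 0.027 with limma-voom and 0.025 with the block; the cause was not tested. Without 1 library the log2 fold changes ranged as follows: Cdh1 -0.30 to 0.048, Cdh2 -0.28 to 0.29, Cldn3 -0.88 to 0.26, Cldn4 -0.19 to 0.40, Cldn7 -0.29 to 0.44, Col17a1 -0.17 to 0.43, Ctnnb1 -0.27 to 0.081, Dsc3 -0.36 to 0.55, Epcam -0.25 to 0.26, F11r -0.17 to 0.072, Gja1 -0.25 to 0.029, Gjb2 -0.063 to 1.04, Jup -0.062 to 0.29, Macf1 -0.19 to 0.14, Ocln -0.41 to 0.54, Perp -0.30 to 0.054, Pkp2 -0.13 to 0.83, Pkp3 -0.21 to 0.030, Pkp4 -0.059 to 0.26, Tjp3 -0.28 to 0.35. The lowest count was 34, in Dsc3, which also had the largest SE of the 35 genes (0.62); the effect of depth was not tested.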
